A study of Mus musculus with 5 samples.

Results

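PU.1 sites that lie just outside the immediate vicinity of a gene end were examined. These are the summits on chromosomes 1 to 19 that stand over 100 bp and at most 1000 bp from the nearest start or end coordinate of a protein-coding gene. Of the 11111 sites in the list, 10920 lay on these chromosomes, and 821 of those (7.52%) met the distance rule. A further 427 sites were nearer, within 100 bp of a gene end, and 9672 were farther away. The rule uses position alone. Neither the scores nor the sequences were used to choose the sites, though both can vary with the distance to a gene.

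The sites come from chromatin immunoprecipitation and sequencing (ChIP-seq) of PU.1 with the T-21 antibody. The cells were AML-246, a mouse acute myeloid leukaemia on the C57BL/6 background that is p53-/- and carries a GFP-linked short hairpin RNA against PU.1 (shPU.1). They were taken from the spleens of leukaemic recipients. PU.1 low cells came from untreated mice (2 libraries). PU.1 high cells came from mice given doxycycline (Dox) for 2 days (3 libraries), which shuts the hairpin down and restores the endogenous factor. Both groups carry the hairpin and lack p53, both stem from the single leukaemia AML-246, and neither is normal tissue. The libraries of a group are labelled technical replicates. The only values are 1 list of summits called for PU.1 high against PU.1 low and the authors' score of each. No value per library is in it, so no fold change, no spread between libraries and no test of treatment can be given. Each score is on a −log10 scale, where a higher score means a surer call, and it depends on sequencing depth, which is unknown. Intervals below are 95% Wilson intervals for shares and 95% order-statistic intervals for medians. They cover counting error only, and sites are not replicates of the cells, so sites and genes were described and not tested.

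PU.1, encoded by Spi1, is a member of the ETS family of transcription factors and is needed for the development of myeloid and B cells. All ETS proteins contact a GGAA core, and PU.1 prefers a purine-rich stretch around it, the PU.1 box, of which GAGGAAGT is a typical form. In macrophages and their precursors PU.1 binds at many distal enhancers as well as at promoters, and myeloid promoters often lack a TATA box.

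The DNA under the sites could be read where a summit fell in a RefSeq promoter sequence (GRCm38.p6), which spans 250 bases before and 50 bases after a listed transcription start. Such a sequence was found for 132 of the 821 sites, each at a different protein-coding gene. Of these summits, 118 lay before the start and 14 at or after it. The 12 highest-scoring ones that lay before the start and in no coding gene are printed here to show the bases that the summits sit on. Each stretch reaches up to 75 bases to each side of the summit and stops at the start of transcription or where the promoter sequence runs out. It is written 5′ to 3′ in the direction of the gene. Capitals mark each GGAA or its reverse complement TTCC, each extended core GGAAGT and each PU.1 purine box GAGGAAGT, with the same applied to the reverse complements of the longer 2.
Eif3f (chr7:108934165-108934269, plus strand): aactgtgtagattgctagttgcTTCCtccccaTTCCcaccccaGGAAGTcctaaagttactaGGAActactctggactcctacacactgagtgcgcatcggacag
Narf (chr11:121236988-121237138, plus strand): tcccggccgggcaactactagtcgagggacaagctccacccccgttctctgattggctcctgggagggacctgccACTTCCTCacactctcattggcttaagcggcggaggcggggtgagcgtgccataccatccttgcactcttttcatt
Eif3m (chr2:105017058-105017208, minus strand): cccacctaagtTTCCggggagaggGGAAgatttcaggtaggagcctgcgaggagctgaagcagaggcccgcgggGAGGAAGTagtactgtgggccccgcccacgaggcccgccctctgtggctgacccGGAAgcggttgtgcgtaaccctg
Kpna4 (chr3:69127130-69127280, minus strand): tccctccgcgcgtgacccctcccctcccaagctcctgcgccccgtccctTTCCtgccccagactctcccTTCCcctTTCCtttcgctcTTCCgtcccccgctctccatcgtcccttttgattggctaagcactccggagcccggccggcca
Hspa1a (chr17:34972316-34972406, minus strand): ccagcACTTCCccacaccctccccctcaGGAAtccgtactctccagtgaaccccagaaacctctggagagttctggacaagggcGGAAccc
Tlr11 (chr14:50357698-50357848, plus strand): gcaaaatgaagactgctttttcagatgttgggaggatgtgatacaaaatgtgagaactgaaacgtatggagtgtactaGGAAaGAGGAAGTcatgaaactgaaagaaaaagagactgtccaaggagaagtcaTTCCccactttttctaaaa
Gstk1 (chr6:42245748-42245898, plus strand): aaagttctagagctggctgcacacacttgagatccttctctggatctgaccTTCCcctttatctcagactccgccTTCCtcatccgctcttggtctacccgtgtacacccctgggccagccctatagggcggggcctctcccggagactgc
Clec4a1 (chr6:122921598-122921729, plus strand): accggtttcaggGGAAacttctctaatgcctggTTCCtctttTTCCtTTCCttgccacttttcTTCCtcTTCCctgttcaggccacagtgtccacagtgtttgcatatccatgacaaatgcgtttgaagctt
H2-D1 (chr17:35262865-35263015, plus strand): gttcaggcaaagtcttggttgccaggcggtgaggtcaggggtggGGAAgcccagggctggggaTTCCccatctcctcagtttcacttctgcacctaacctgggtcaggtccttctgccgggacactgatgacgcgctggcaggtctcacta
Fam53a (chr5:33629767-33629885, minus strand): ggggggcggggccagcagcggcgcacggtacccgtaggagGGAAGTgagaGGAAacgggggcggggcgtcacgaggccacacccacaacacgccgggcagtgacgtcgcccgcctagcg
Fem1a (chr17:56256596-56256746, plus strand): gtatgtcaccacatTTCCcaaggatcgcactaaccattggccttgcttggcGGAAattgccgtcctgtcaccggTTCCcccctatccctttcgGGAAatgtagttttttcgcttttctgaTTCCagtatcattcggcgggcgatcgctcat
Taf5 (chr19:47067517-47067667, plus strand): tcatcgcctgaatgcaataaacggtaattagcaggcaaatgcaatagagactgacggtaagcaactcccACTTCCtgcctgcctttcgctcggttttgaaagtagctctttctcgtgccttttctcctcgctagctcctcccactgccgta

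All 12 stretches held a GGAA core on one strand or the other, 7 held the extended core and 3 held the full purine box. The site before Eif3f, a gene of a translation initiation factor subunit, had the highest score of the 12, at 19.4, with its summit 221 bases before the start. Its extended core GGAAGT lies in the printed stretch to the right of the summit, which is base 30. Narf, which encodes a binding partner of prelamin A, and Eif3m, another initiation factor subunit gene, each scored 15.5, and in both the purine box covered the summit. Kpna4, which encodes a nuclear import receptor, had the same score of 15.5 with 4 copies of GGAA and no extended core. Hspa1a, a heat shock chaperone gene, scored 15.2, and Tlr11, a Toll-like receptor gene, scored 14.8 with a purine box. Gstk1, a glutathione transferase gene, scored 14.2 and Clec4a1, a myeloid lectin receptor gene, scored 13.2, both without an extended core. The Clec4a1 stretch held 6 copies of GGAA. H2-D1, a class I histocompatibility gene, scored 12.7, as did Fam53a. Fem1a, a gene of a ubiquitin ligase substrate receptor, scored 11.8, and Taf5, a gene of the general transcription factor TFIID, scored 11.3.

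Matches to the PU.1 purine box were more frequent around the summits than at the same positions of promoters in general. For 94 sites a full 101 bases centred on the summit lay within the promoter sequence. GAGGAAGT, searched on both strands, was present in 14 of these 94 stretches (14.9%, 95% interval 9.08 to 23.5). Over all 20085 promoter sequences of protein-coding genes on these chromosomes, read at the same positions, it was present in 0.897%. The extended core GGAAGT, which every purine box contains, was present in 42 stretches (44.7%, 35.04 to 54.7) against 8.60% of all promoters. The bare core GGAA, contained in both, was found in 93 of 94 stretches (98.9%) against 67.4%. CCGGAAGT, a form that many other ETS proteins prefer and that also contains the extended core, was found in 5 stretches (5.32%, 2.29 to 11.9) against 1.45%. The ETS-IRF composite motif, on which PU.1 can bind together with an interferon regulatory factor, was found in 3 stretches (3.19%, 1.09 to 8.97) against 0.844%.

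**Figure D1:**
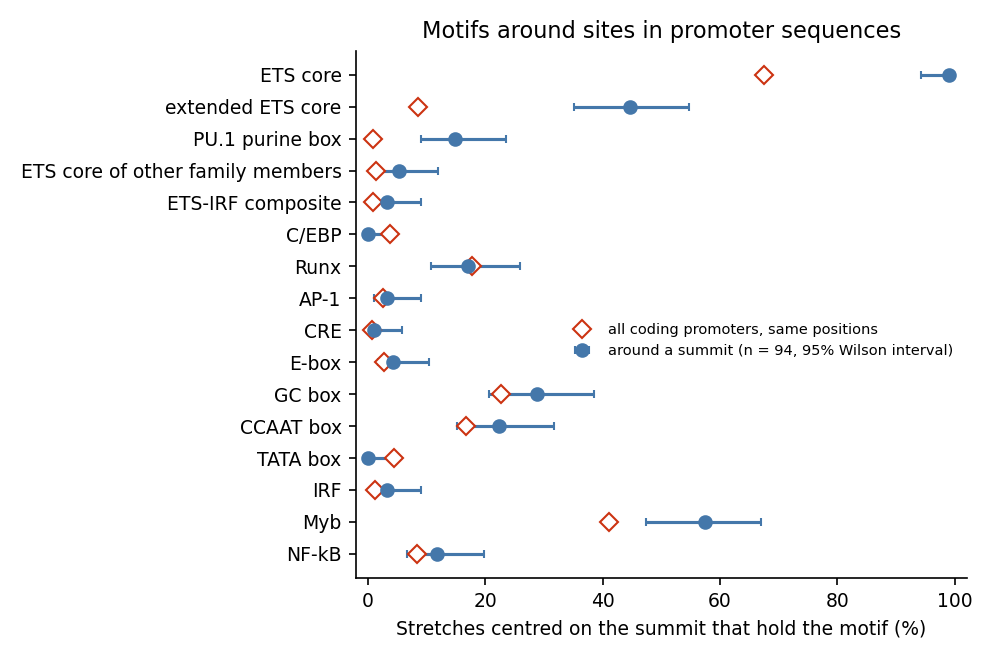
Share of stretches of 101 bases that hold each motif (x axis, percent, linear). Filled points are the 94 stretches centred on a PU.1 summit with 95% Wilson intervals, and open diamonds are all coding promoter sequences read at the same positions. The purine box stands at 14.9% against 0.897% and the extended core at 44.7% against 8.60%, while the Runx and AP-1 diamonds lie inside the intervals of the points.

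Motifs of most other factors did not stand apart in this way. The Runx motif TGNGGT was present in 17.02% of the stretches against 17.8% of all promoters at these positions, and the AP-1 motif TGANTCA in 3.19% against 2.51%. CACGTG, the E-box that Myc proteins bind, was at 4.26% against 2.71%, and the cAMP response element TGACGTCA was at 1.06% against 0.716%. The GC box GGGCGG was at 28.7% against 22.7%, the CCAAT box at 22.3% against 16.6%, the NF-kB motif at 11.7% against 8.29% and the interferon regulatory factor motif (a repeat of GAAA), which can overlap the composite above, at 3.19% against 1.14%. Each of these background shares lay inside the 95% interval of the share around the summits. The short motif AACNG of Myb was at 57.4% (47.4 to 67.0) against 41.03%, so the background lay below that interval. The C/EBP motif TTGCNNAA and the TATA box TATAAA were in 0 of 94 stretches, against 3.72% and 4.47% of all promoters. A count of 0 allows a share of up to 3.19% by a limit of 3 counts and up to 3.93% by the Wilson interval, which includes the C/EBP background and not that of the TATA box. Read over the whole promoter sequences of the 132 sites, some of these results differed. The GC box was in 63.6% (55.2 to 71.3) against 47.0% of all promoter sequences, so its background lay below the interval. The TATA box was in 7.58% (4.17 to 13.4) against 12.7%, and AACNG in 84.8% (77.8 to 90.0) against 78.7%. Both of these backgrounds lay inside the intervals. A match to letters is not a bound site, and the lack of a match says only that these letters are not in the stretch.

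The purine box lay close to the summit. Over the whole promoter sequences of the 132 sites, 17 (12.9%, 8.20 to 19.7) held it, against 3.18% of all promoter sequences, and 16 of the 17 had their box centred within 25 bp of the summit, with a median distance of 5.5 bp. On the strand of the gene it was read 11 times and on the opposite strand 6 times. The nearest GGAA core had the same median distance to the summit, with 123 of 132 within 25 bp, and the nearest extended core one of 11 bp. Where a summit lay within 100 bp of a gene end, 7.89% of 279 promoter sequences held the box and 66.3% the extended core. The extended core was in 56.1% of the 132 sequences. These 2 sets differ by distance to gene ends and are not kept apart by distance to listed starts. Some of the 132 summits also lay within 100 bases of a listed start. That of Parvg, for instance, was 548 bp from the nearest gene end and 3 bases from the listed start. For 9 of the 17 the box and 12 bases to each side lay before the start and outside any coding gene. They are printed here, all turned so that the box, in capitals, reads in the same direction, to show how the flanks differ around a constant core.
Narf (chr11:121237051-121237082, minus strand): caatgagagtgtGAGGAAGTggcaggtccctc
Eif3m (chr2:105017115-105017146, minus strand): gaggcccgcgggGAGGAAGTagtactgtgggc
Tlr11 (chr14:50357769-50357800, plus strand): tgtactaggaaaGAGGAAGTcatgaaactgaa
Thumpd3 (chr6:113046108-113046139, plus strand): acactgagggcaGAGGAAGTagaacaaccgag
Mpdu1 (chr11:69662794-69662825, minus strand): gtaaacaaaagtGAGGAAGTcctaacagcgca
S100a8 (chr3:90668887-90668918, minus strand): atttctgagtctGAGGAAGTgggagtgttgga
Spp1 (chr5:104434986-104435017, plus strand): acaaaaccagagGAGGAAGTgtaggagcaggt
Lpp (chr16:24393130-24393161, minus strand): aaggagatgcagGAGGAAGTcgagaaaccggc
Cenpa (chr5:30666636-30666667, plus strand): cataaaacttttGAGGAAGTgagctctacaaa

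Among these 9, Narf and Eif3m had the highest score (15.5 each) and Cenpa, the gene of the centromeric histone, the lowest (6.84). S100a8, which encodes a calcium-binding protein that neutrophils and monocytes store in bulk, had its summit 166 bp before the gene with a score of 9.42, and its box was centred 2.5 bp from the summit. Spp1, the osteopontin gene, a secreted protein of macrophages, had a score of 7.69 and its box centred 0.5 bp from the summit. Thumpd3 scored 11.1, Mpdu1, a gene of dolichol-linked sugar use, 10.4, and Lpp, a gene of focal adhesions, 6.93. The other 8 genes with a box were Parvg, a leukocyte parvin of integrin adhesions (13.2), Nlrp1a, an inflammasome sensor (12.998), Ly6g5b (12.2), Abcg3 (12.02), Hpgds, a prostaglandin D synthase (10.4), Ly6g6d (8.78), Trmt10a (6.21) and Ly6c2, a surface antigen gene of the Ly6 family (5.26). At Ly6g5b and Ly6g6d the summits lay 51 and 23 bases before the listed start. The nearest gene ends there were those of other genes, Csnk2b (635 bp) and Ly6g6e (725 bp). For all 8 the summit lay within 100 bases of the listed start, and for the 9 printed ones it lay farther from it. The genes with a box were taken from the match and not from the rule for named genes.

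The median score was highest for sites with a purine box. The 17 had scores from 5.26 to 15.5, with a median of 10.4 and quartiles of 7.69 and 12.998. The 57 with an extended core and no purine box had a median of 6.29 (quartiles 4.61 and 9.68), and the 58 with neither had a median of 6.53 (4.74 and 8.42). The 3 sets overlapped, since single sites without a box reached scores of 21.4 and 21.8. The sets were made by matches anywhere in the promoter sequence. Of the 74 sites with an extended core, with or without a box, 51 had one centred within 25 bp of the summit. A full 101 bases around the summit could be read for 94 of the 132 sites only, so a motif beyond the promoter sequence would be missed.

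**Figure D2:**
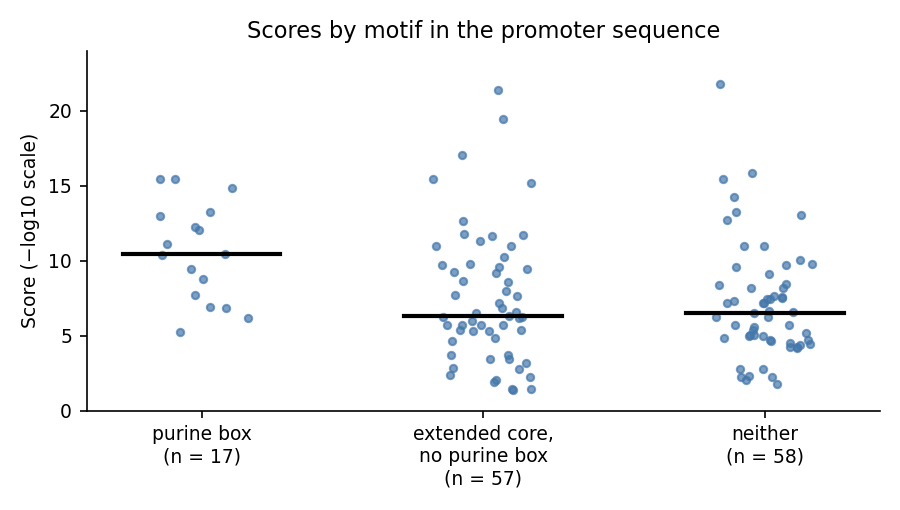
Score of each of the 132 sites in a promoter sequence (y axis, −log10 scale), split by the motif found in that sequence. Points are single sites, spread sideways only for legibility, and bars are medians, at 10.4 for the purine box, 6.29 for the extended core alone and 6.53 for neither.

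The promoter sequences with a site were richer in CpG than promoters in general. Their median ratio of observed to expected CpG was 0.783 (quartiles 0.519 and 0.932), against 0.586 (0.234 and 0.834) for all coding promoters, and 86 of the 132 (65.2%) had a ratio of at least 0.6, against 48.9%. Promoters with a summit within 100 bp of a gene end had 68.1% above this limit (190 of 279). The purine box was unevenly spread over the 2 kinds of promoter. It was found in 12 of the 46 CpG-poor sequences (26.1%, 15.6 to 40.3) and in 5 of the 86 CpG-rich ones (5.81%, 2.51 to 12.9), where all coding promoters of these kinds had 4.01% and 2.32%. The extended core was found in 73.9% of the CpG-poor and 46.5% of the CpG-rich sequences with a site, against 23.8% and 26.2% of all. Median scores were 7.07 and 6.78, with overlapping intervals (5.404 to 8.78 and 6.16 to 7.69).

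Most of the sites lay at the start of transcription and not at its end. The strand was known for the nearest gene of 658 sites, and 504 of them (76.6%, 73.2 to 79.7) were nearest to a start and 154 to an end. Among sites within 100 bp, 322 of 336 (95.8%, 93.1 to 97.5) were nearest to a start, and among sites beyond 1000 bp 59.2% (58.1 to 60.3) were. The intervals of these 3 shares do not overlap. Of the 504 sites at starts, 270 lay before the gene and 234 inside it. Of the 154 at ends, 92 lay beyond the gene and 62 inside it. Of all 821 sites, 406 (49.5%, 46.04 to 52.9) were outside every protein-coding gene, against 47.7% of sites beyond 1000 bp.

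Before the start the number of sites fell with distance over most of the range, and within the gene it fell at first and rose again. Upstream, 77 sites stood over 100 to 200 bp from the start, 47 in the next 100 bp, 28 at over 400 to 500 bp and 16 in the last 100 bp of the range. Inside the gene the counts were 43 and 29 in the first 2 bins, 15 at over 400 to 500 bp and 31 at over 800 to 900 bp. At ends of transcription no bin held more than 14 sites on either side. Of all 821 sites, 297 (36.2%) were within 300 bp. The median distance was 394 bp at starts and 521 bp at ends.

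**Figure D3:**
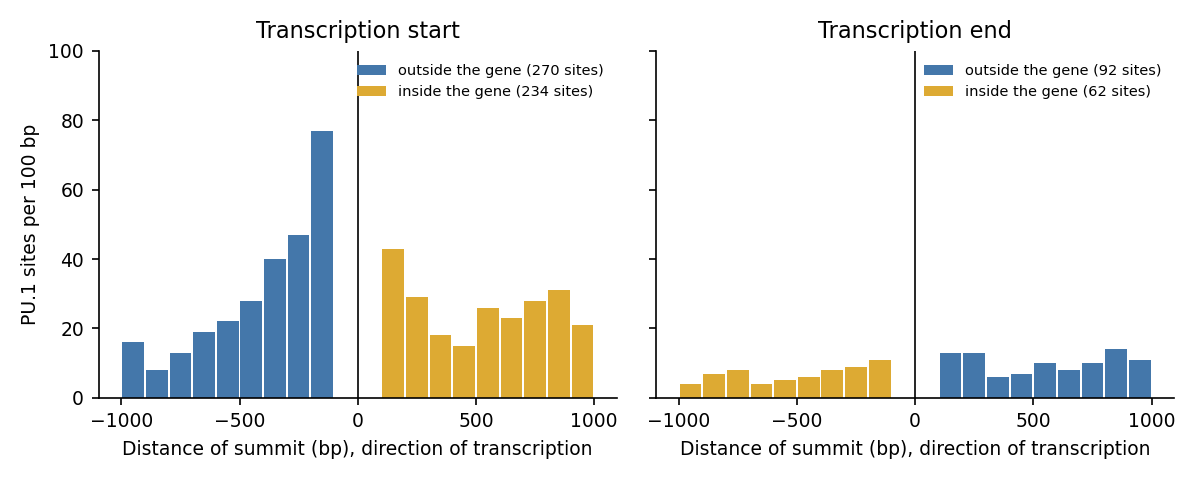
Number of PU.1 sites (y axis) in 100-bp bins of distance from the nearest transcription start (left) or end (right), in the direction of transcription, for the 658 sites with a known strand. Blue bars are outside and yellow bars inside the nearest gene, and the space within 100 bp is empty by the rule. Upstream of starts the count falls from 77 to 16, while at ends no bar exceeds 14.

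Scores of these sites were intermediate between those of the nearer and the farther sites, and close to the former. They ran from 1.35 to 29.4 with a median of 7.84 (7.48 to 8.35) and quartiles of 5.26 and 11.2. The median was 7.63 (7.29 to 8.22) within 100 bp and 8.64 (8.56 to 8.72) beyond 1000 bp, so the interval overlapped that of the nearer sites and not that of the farther ones. A score of at least 10 was reached by 273 of the 821 sites (33.3%, 30.1 to 36.5), against 37.5% of all sites on chromosomes 1 to 19, and 20 sites reached 20. Within the distance range the score was lower near the gene end. Over 100 to 300 bp the median was 7.23 (6.84 to 7.63), and over 300 to 1000 bp it was 8.38 (7.99 to 8.78). Sites at starts had a median of 7.68 (7.29 to 8.35) and sites at ends one of 8.17 (7.29 to 9.57).

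**Figure D4:**
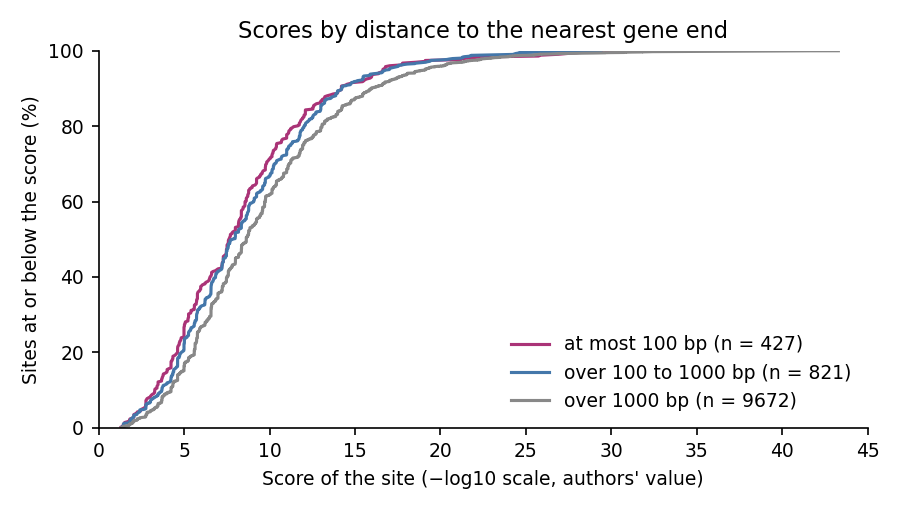
Cumulative share of sites (y axis, percent) at or below each score (x axis, −log10 scale) for the 3 distance classes. The curve of sites over 100 to 1000 bp, median 7.84, runs between that of the nearer sites, 7.63, and that of the farther sites, 8.64.

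The 12 highest-scoring sites stood at genes of varied function, of which Slamf6, Clec4a2 and Fcer1g are typical of leukocytes. The top site, at 29.4, lay 988 bp before Olfr111 (chromosome 17, 37525753 to 37537652), an olfactory receptor gene, and another site with a score of 14.96 lay between it and the gene. Spata6, named for its role in sperm formation, had a site of 26.9 inside the gene, 534 bp from its start. The third site, at 26.0, lay 374 bp before the start of Fcer1g, which encodes the signalling chain of Fc receptors. Slc16a7, a monocarboxylate transporter gene, had a site of 25.9 at 585 bp beyond its upper end. Slamf6 (chromosome 1, 171917458 to 171948958), a receptor gene of lymphocytes, had one of 24.6 inside the gene, 211 bp from the start.

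The scores of the next 7 sites lay between 21.8 and 24.6. Trmt12, a gene of transfer RNA modification, had a site of 24.6 inside the gene. Papss1, which makes the sulfate donor of the cell, had one of 24.4 and Iqgap1, a scaffold gene of the cytoskeleton, one of 24.3, both inside the gene and near its end of transcription, at 459 and 130 bp. Armc1 had a site of 24.2 at 190 bp beyond its upper end. Wdr41 had a site of 22.9 inside the gene, 618 bp from the start. Clec4a2 (chromosome 6, 123122690 to 123143999), an inhibitory lectin receptor of myeloid cells, and Inpp4b, a phosphoinositide phosphatase gene, each had a site of 21.8 inside the gene, 596 and 132 bp from the start. The lowest scores were 1.35 at Cstf2t, a gene of messenger RNA cleavage, and 1.37 at Ppih, a cyclophilin gene of the spliceosome, followed by 3 sites tied at 1.44, at Calm3, Nsmce1 and LOC115488470.

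A protein-coding gene had such a site in 876 of 20665 cases (4.24%). A site can count for more than 1 gene, and 39 genes had 2 sites while none of the 876 had more. The 39 included Hcar2, a receptor gene for hydroxybutyrate and niacin on myeloid cells (scores 13.3 and 4.09), Nlrp1a (12.998 and 10.4), Ear2, an eosinophil ribonuclease gene (12.3 and 12.1), and Mmp2, a gelatinase gene (16.4 and 9.91). These 4 were chosen after their values were seen. Spi1 was not among the 876, since its nearest site lay 1.397 kb from its lower end (score 8.31), and neither was Trp53, with 25.4 kb.

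Cytokine, antigen presentation, signalling and receptor genes were among the lists with the highest shares. Gene lists are described by counts, beside the 4.24% of all protein-coding genes, and each has few genes with a site. Some genes stand in several lists. Of the inflammatory cytokine and NF-kB feedback genes, 6 of 31 had one (19.4%, 9.19 to 36.3), with a median score of 10.3 against 7.91 over all genes with a site. They were led by Il12b, a subunit gene of interleukin-12 (17.9, 413 bp beyond its end of transcription), Tnf (12.7, inside the gene and 788 bp from its start) and the chemokine gene Ccl4 (12.1, inside). Of the antigen presentation and co-stimulation genes, 4 of 23 had one (17.4%, 6.98 to 37.1, median 9.23). Cd80, a ligand of T cell co-stimulation, had a score of 13.2 at 106 bp before the start, and Cd40, a co-stimulatory receptor, had 10.2 inside the gene. H2-DMb2, whose product helps to load peptides on class II molecules, had 8.24 at 572 bp before the start.

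Of the kinase, phosphatase and adaptor genes, 7 of 45 had a site (15.6%, 7.75 to 28.8, median 10.8). Pik3r5, a regulatory subunit gene of a phosphoinositide kinase, had a score of 13.3 at 339 bp before the start. Vav2, an exchange factor gene, had 11.7 inside the gene and Fyn, a Src family kinase gene, had 11.1 at 421 bp before the start. Syk, a kinase gene of Fc receptor and integrin signalling, followed with 10.8 and the site inside the gene. Syk was chosen after its values were seen. Of the pattern recognition, Fc and lectin receptor genes, 4 of 32 had one (12.5%, 4.97 to 28.1, median 17.5), namely Fcer1g, Clec4a2, Clec4a1 and Syk, the first 3 with the scores of 26.0, 21.8 and 13.2 given above. The lower bounds of these 4 lists lay above 4.24%. So did that of the list of RNA polymerase II, Mediator and general transcription genes, 5 of 49 (10.2%, 4.44 to 21.8), whose scores were low, with a median of 4.71. Its highest were Med29 (9.57) and Med26 (5.02), both Mediator subunit genes. These bounds make no allowance for the number of lists, 20, which were chosen with earlier results of these data known. Syk counts among both the kinase and the receptor genes. Enrichment of a list was not tested.

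**Figure D5:**
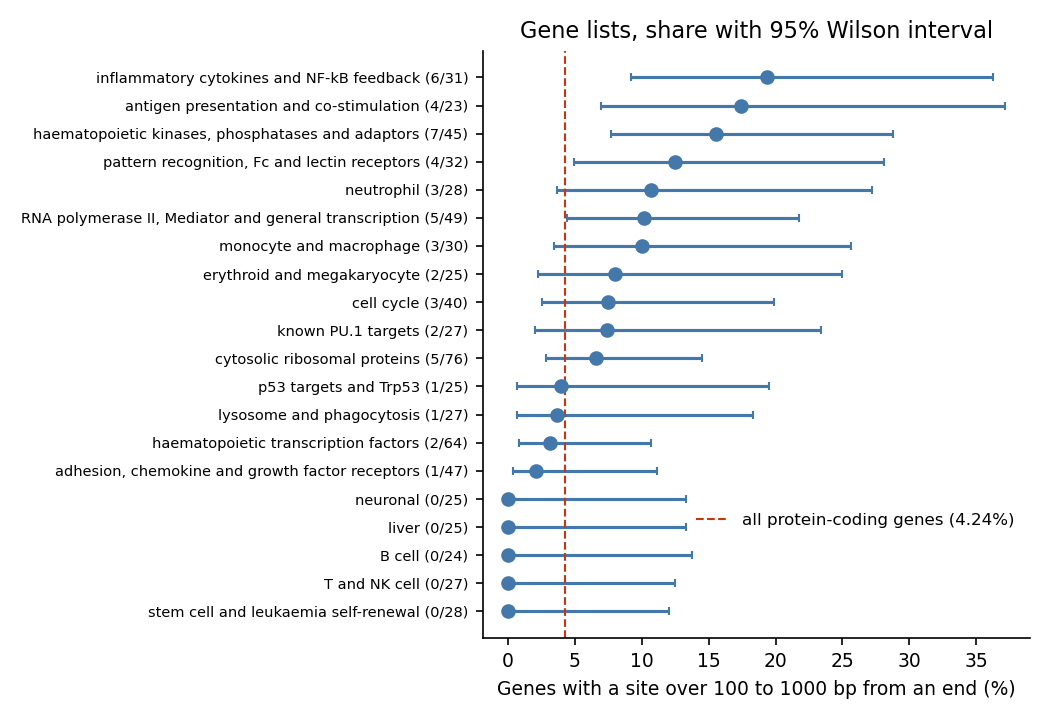
Share of the genes of each list with a PU.1 site over 100 to 1000 bp from an end (x axis, percent), with 95% Wilson intervals and the counts in brackets. The dashed line marks 4.24%, the share of all protein-coding genes, and most intervals include it.

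For the other lists the interval included 4.24%. Neutrophil genes had a site in 3 of 28 cases (10.7%, 3.71 to 27.2). These were Ngp, a granule protein gene (9.77, beyond its end of transcription), S100a8 (9.42) and Cyba, which encodes a chain of the oxidase that makes superoxide in phagocytes (4.62, inside the gene). Monocyte and macrophage genes had one in 3 of 30 cases (95% interval 3.46 to 25.6%). These were Adgre1, the F4/80 antigen gene (17.5, at 811 bp beyond its lower end), Itgam, which encodes the integrin chain CD11b (7.81, inside and 763 bp from the start), and Cd14, a co-receptor for lipopolysaccharide (4.99). The last pair were also the 2 of 27 known PU.1 targets with a site (7.41%), and Itgam was the single one of 47 adhesion, chemokine and growth factor receptor genes (2.13%). Of 64 haematopoietic transcription factor genes, 2 had a site (3.12%, 0.861 to 10.7), Stat3 (6.61) and Irf2 (3.74), both before the start. Lysosome and phagocytosis genes had 1 in 27 (3.70%), Atp6v0d1, a proton pump subunit gene (4.62).

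Erythroid and megakaryocyte genes had a site in 2 of 25 cases, Hbb-bt, a beta globin gene (4.71), and Nfe2 (1.82). Cell cycle genes had one in 3 of 40 cases, Ccnd3, a cyclin of the G1 phase (10.2, beyond its end of transcription), Cdkn1a, the p21 inhibitor (6.22, 258 bp before the start), and Bub1, a spindle checkpoint kinase gene (5.06). Cdkn1a was also the single site-bearing gene of the 25 in the p53 target list. Cytosolic ribosomal protein genes had one in 5 of 76 cases (6.58%), led by Rps9 (10.7), Rpl18 (8.86) and Rpl27a (6.62). None of 28 genes of stem cells and leukaemic self-renewal, 24 B cell genes, 27 T and NK cell genes, 25 liver genes and 25 neuronal genes had a site at this distance. A count of 0 allows a share of up to 10.7%, 12.5%, 11.1%, 12% and 12% in these lists, each above 4.24%, so that a lower share was not detectable with so few genes.

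Some sites lay near the ends of 2 genes. For 90 of the 821 (10.96%, 9.004 to 13.3) the ends of at least 2 protein-coding genes lay within 1000 bp, and in 21 cases these were divergent starts, from which 2 genes ran away from each other. The median score at divergent starts was 7.29. The highest were at Ogfod1 with Nudt21 (17.1) and Hspa1a with Hspa1l (15.2), chosen after their values were seen. The summit stood between the 2 starts in 2 of the 21. In another 15 cases the starts lay on opposite strands and the genes overlapped there (median 7.48), with Inpp4b and Gm51582 the highest (21.8). In 19 cases a start and an end shared the site (median 8.64), and in 25 the strand was not known for both. An end of a noncoding gene lay within 1000 bp of 93 sites (11.3%), and the nearest such end was that of a long noncoding RNA gene for 81 sites and of a microRNA gene for 4. A further start listed in the promoter table, of the same or another gene, lay within 100 bp of 67 sites (8.16%), so these were near a start by a finer annotation than gene ends.

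Most of the sites stood alone over 10 kb to each side. Another site of the list lay within 10 kb of 252 of them (30.7%, 27.6 to 33.9), against 23.9% (20.1 to 28.2) of sites within 100 bp and 34.1% (33.2 to 35.05) of sites beyond 1000 bp, and the interval overlapped both of the others. Accompanied sites had a median score of 9.09 (7.9997 to 9.75) and solitary ones one of 7.51 (7.21 to 7.9995). Over the chromosomes the number of sites ran from 2.75 per 100 protein-coding genes on chromosome 9 to 5.54 on chromosome 15, with 3.97 over all.

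At the limits of the rule the nearest sites had unremarkable scores. Just inside 100 bp were sites at Trim27 (100 bp, score 11.0) and Ddx54 (100 bp, 3.68), and just beyond it were those at Abl1 (101 bp, 11.8) and Vps29 (101 bp, 5.73). Just inside 1000 bp were those at Tmem131 (999 bp, 7.29) and Pgs1 (998 bp, 5.20), and just beyond it were those at Dmpk (1001 bp, 5.11) and Sh3pxd2a (1002 bp, 6.98).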

How the data were processed

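ChIP-seq libraries of PU.1 from 2 untreated and 3 doxycycline-treated samples underlie the data. The authors deposited 1 list of peak summits with a score on a −log10 scale (p or q not stated). CASAVA 1.8.2, MACS2 and the build mm10 are named per the submitters' processing notes. The MACS2 settings, the aligner, how libraries were pooled and the depth are unknown here, and the direction, high against low, is read from the name of the list.

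Summit positions (1-based) were assigned to the nearest start or end coordinate of protein-coding genes in a RefSeq table (GRCm38.p6, which shares mm10 coordinates). Strand and promoter sequences came from RefSeq promoters, which gave a strand for 16457 of 20665 coding genes. Of several sequences with a summit, the one with the nearest start was used. Motifs were matched exactly on both strands. Genes were matched to 20 lists by symbol or synonym, with 1 entry not matched. The distance and motif functions were tested on simulated data.

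The sites, lists and alternatives were chosen with earlier results of these data known. The genes named are those at the 12 highest and 3 lowest scores, the 2 sites on each side of each limit, the 3 highest per list, genes with 3 or more sites (none), printed sequences, Spi1 and Trp53. Some genes that the rule takes are not reported here. A gene that stands outside this rule is said to be chosen after its values were seen or comes from the purine box matches. Python 3.11.15, pandas 2.3.3 and scipy 1.17.1 were used.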

Additional observations from a re-analysis of the deposited data

Results flagged for a closer look

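Chromosome X was left out by the distance rule. It held 11 sites over 100 and at most 1000 bp from a coding gene's nearest end, of 186 sites on that chromosome (5.91%), with scores from 3.30 to 11.3 and a median of 6.89. They are given here because they are signal outside the comparisons of the report, and they entered only the alternative that includes this chromosome.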

How the results depend on the processing

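Of 54 values under 9 alternatives, 37 stayed within 1.5 times the count or within the 95% interval of the share or median. A minimum score of 10 gave 273 sites, 295 genes, a median score of 12.7, 53.1% outside coding genes, 73.02% at starts and a purine box in 30.3% of promoter sequences in place of 12.9%. A minimum of 5 raised the median to 9.22. These minimums remove low scores, so a higher median follows from their construction. An outer limit of 500 bp gave 457 sites, 481 genes, 56.5% outside genes and 80.3% at starts. An outer limit of 2000 bp gave 1418 sites, 1508 genes and 45.8% outside genes. Ends and spans of genes of all biotypes gave 1253 sites, 39.3% outside any gene and 70.3% at starts. Other limits, chromosome X and merging within 500 bp moved no value that far. No paired analysis was possible because no library has values of its own, and for that reason no replicate could be left out. Since depth is unknown, a missing site does not show a lack of binding.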
